A study of Homo sapiens with 6 samples.

Results

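The genes described here are 35 interferon-stimulated and nucleic acid sensing genes of human cells. They were taken by symbol, as the rows of the deposited count table whose symbol is 1 of 35 listed symbols, and all 35 were found among its 26485 genes. They comprise 6 interferon factors, 9 nucleic acid sensors or RNA-modifying enzymes, 3 genes of the ISG15 system, 11 antiviral effectors and 6 other inducible genes. RNA sequencing had been done on H9, an established human line of T lymphoma cells, which the labels place among cutaneous T lymphocytes. The control group held 3 libraries from cells given the vehicle DMSO and the other group 3 libraries from cells given PA4 at 1 µM, both for 24 h. PA4 is a code name. Both groups come from this single line, with no interferon-treated group. Nothing in the labels says that replicates were grown separately, so the p-values reflect the spread between these libraries, which may be technical.

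Interferons are secreted signals that bind receptors on the cell surface and, through JAK kinases, activate transcription factors. Type I interferon acts through a complex that contains STAT2 and IRF9 and binds the interferon-stimulated response element in promoters. The genes switched on in this way include sensors that recognise foreign or misplaced RNA and DNA, effectors that block steps of viral growth, and feedback inhibitors. Many are also transcribed at a basal level without added interferon, and lymphoid cells differ widely in that level.

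The RefSeq promoter table of GRCh38.p14, which runs from 250 bases before to 50 bases after a transcript start, held 26 of the 35 genes, DDX58 under its current name RIGI. The core letters of the response element, GAAA and GAAA with any 2 bases between them, were searched on both strands. They occurred in 17 of these 26 genes (65.4%), against 4.38% of the 27305 genes of the table. The palindrome of TTC and GAA with any 3 bases between them, the core of the site that STAT dimers bind, occurred in 7 of the 26 (26.9%), against 9.38% of all genes. The genes ADAR, IFI16, IFIT3, IFI44 and MX1 each had more than 1 start in the table and were counted once. In BST2, IFITM1 and MX1 a match to the first motif overlapped a match to the other. A match is a description of the letters and not evidence of binding.

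The stretches below are shown because they span the range of expression found in these cells, from the most abundant member to the least. Each is printed 5′ to 3′ on the strand of its gene, lies wholly before the start in the promoter table, and has the matching letters in capitals. For AIM2 that start lies inside the RefSeq span of the gene, 159055051 to 159147132, and not at its outer end. GBP1 and IFIT1 carry the element on the opposite strand, as does AIM2, the member with the smallest p-value for a difference with PA4. The ISG15 and BST2 stretches hold 2 overlapping matches each, and IFI6 holds 3 separate ones.
GBP1 (chr1:89065311-89065350, minus strand): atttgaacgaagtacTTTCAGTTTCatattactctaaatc
BST2 (chr19:17405730-17405775, minus strand): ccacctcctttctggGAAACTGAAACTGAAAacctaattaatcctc
ISG15 (chr1:1013369-1013414, plus strand): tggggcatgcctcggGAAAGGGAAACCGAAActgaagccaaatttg
AIM2 (chr1:159076932-159076971, minus strand): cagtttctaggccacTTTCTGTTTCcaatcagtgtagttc
IFI6 (chr1:27672261-27672363, minus strand): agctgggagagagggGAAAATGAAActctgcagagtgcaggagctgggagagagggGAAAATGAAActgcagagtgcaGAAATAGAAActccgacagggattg
IFIT1 (chr10:89392492-89392544, plus strand): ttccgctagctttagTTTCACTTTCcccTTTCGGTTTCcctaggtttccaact
IFI44L (chr1:78620269-78620399, plus strand): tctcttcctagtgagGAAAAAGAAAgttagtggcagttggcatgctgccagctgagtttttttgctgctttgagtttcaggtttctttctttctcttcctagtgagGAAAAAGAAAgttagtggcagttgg

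**Figure D1:**
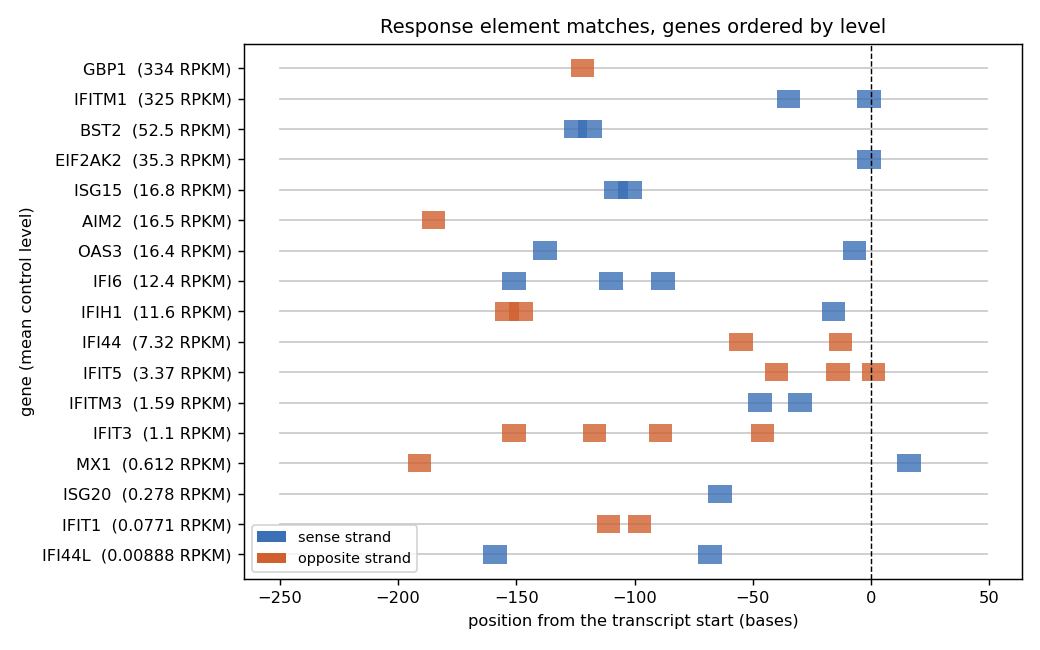
Position of each match to the response element core (bars) from 250 bases before to 50 bases after the transcript start (dashed line) in the 17 genes that hold one, on the gene's strand (blue) or the opposite strand (orange). Genes run from the highest mean control level (GBP1) to the lowest (IFI44L), in RPKM, which is defined in the text, and matches occur along the whole range; for genes with more than 1 start the matches of all starts are drawn together.

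Library totals ranged from 18282212 to 22875191 counts, and the 35 genes took 0.355% to 0.363% of a library. The T cell genes CD3D, CD3E, CD3G, CD28 and CCR4 summed to 7827 to 9646 counts per library. Markers of plasmacytoid dendritic cells, the specialised producers of type I interferon, summed to at most 8 counts over 4 genes, with CLEC4C and LILRA4 at 0 in every library. Myeloid markers summed to at most 17 counts over 5 genes and fibroblast markers to at most 28 over 4. Lists for B, natural killer and epithelial cells each had 2 or 3 of 4 markers under 10 counts in every library, and reached sums of up to 261, 169 and 3199 counts through CD79A, GNLY, EPCAM and CDH1, named after their values were seen. In bulk RNA, fewer cells that express a gene and less of its RNA per cell cannot be told apart.

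The members covered a wide range of basal levels. Levels are given as RPKM, which is CPM per kilobase of the deposited gene model, with CPM the counts scaled to a common library size, so that genes of different length can be compared. In control cells 17 members stood at 10 RPKM or more, 11 at 1 to 10 RPKM and 7 under 1 RPKM. Their median was 8.50 RPKM over all 35 and 11.6 RPKM over the 33 with enough counts to be tested, against 9.01 RPKM over all 12107 tested genes. GBP1, a guanylate-binding GTPase that attacks intracellular pathogens, was highest at 334 ± 7.54 RPKM (SD, n = 3), and IFITM1, a membrane protein that hinders viral entry, followed at 325 ± 18.3 RPKM (SD, n = 3). At the other end IFIT1, which binds viral RNA caps, stood at 0.0771 ± 0.0218 RPKM (SD, n = 3), and IFI44L had 0 to 2 counts per library. A library with 0 counts allows up to 3 counts, or 0.132 to 0.164 CPM at these depths, by counting error alone. In the order of levels, 18 of the 34 pairs of neighbours had ranges over the 6 libraries that overlapped, GBP1 and IFITM1 among them, and 16 did not. The 17 genes with the response element letters had a median of 11.6 RPKM and spanned the whole range, and the 9 without them had a median of 6.21 RPKM and spanned 1.68 to 135 RPKM.

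**Figure D2:**
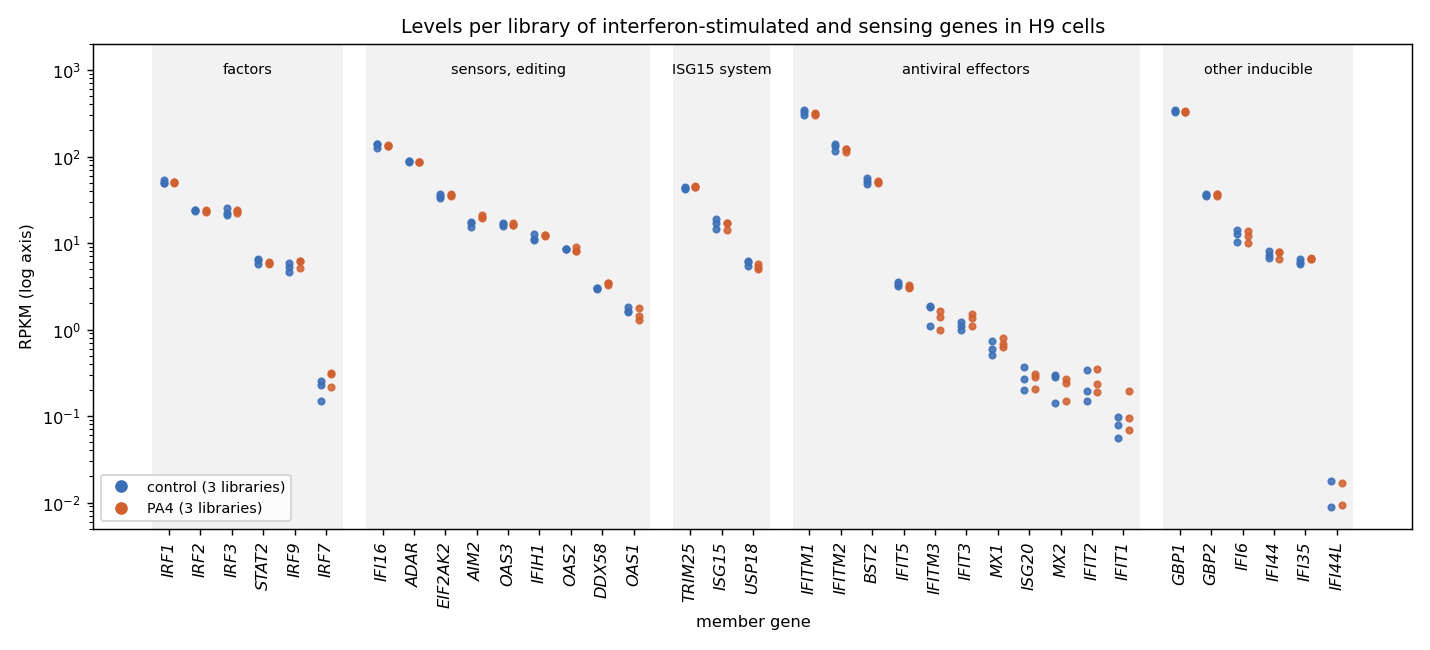
Level of each of the 35 genes in each library (points, RPKM on a log axis), for 3 control (blue) and 3 PA4 (orange) libraries, by role and ordered by mean control level. Levels run from 334 RPKM for GBP1 to under 0.1 RPKM for IFIT1 and IFI44L in control, and control and PA4 points lie close together within a gene; libraries with 0 counts of IFI44L are not drawn.

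The comparison asked how expression in H9 cells differed after PA4. No member passed the test for a change. In edgeR's quasi-likelihood test 33 members had enough counts to be tested, and at an adjusted p under 0.05 there were 0 higher and 0 lower with PA4. Over all 12107 tested genes 0.231% were called, 0.215% higher and 0.0165% lower. DESeq2 and limma-voom called 0 members each, and DESeq2 gave an adjusted p for only 25 members, leaving out low-count ones. At an unadjusted p under 0.05 edgeR gave 2 members higher and 0 lower, 6.06% of those tested, against 5.29% of all tested genes (2.69% higher and 2.6% lower). DESeq2 gave 1 at that level and limma-voom 2, against 304 and 637 of the 12107 genes. For limma-voom that share of all genes was 5.26%. For DESeq2 it was 1.82% over all genes with a p-value, without the low-count filter. Groups did not overlap in 3 members, all higher (9.09%), against 11.2% of all genes (5.91% higher and 5.31% lower). Taken over both directions, these shares are near those of all genes. In the higher direction alone they were 6.06% against 2.69% and 9.09% against 5.91%, on 2 and 3 members. No test of these shares was made.

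The log2 fold changes of the members, PA4 against control, were positive in 15 and negative in 18, with a median of -0.0097 against -0.0040 over all tested genes. They ranged from -0.24 in IFITM3 to 0.42 in IRF7, both of which had fewer than 31 counts per library. The 95% interval lay within 2-fold in both directions for 33 of 33 tested members, within 1.5-fold for 26 and within 1.2-fold for 17. Over all tested genes these shares were 96.8%, 87.1% and 63.7%. The 7 members whose interval reached beyond 1.5-fold were IRF7, IFITM3, IFIT2, IFIT3, ISG20, MX1 and MX2, each with 78 or fewer counts per library. For these genes the intervals include a 1.5-fold change. IFIT1, with 5 to 21 counts per library, and IFI44L fell below the low-count filter and were not tested.

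**Figure D3:**
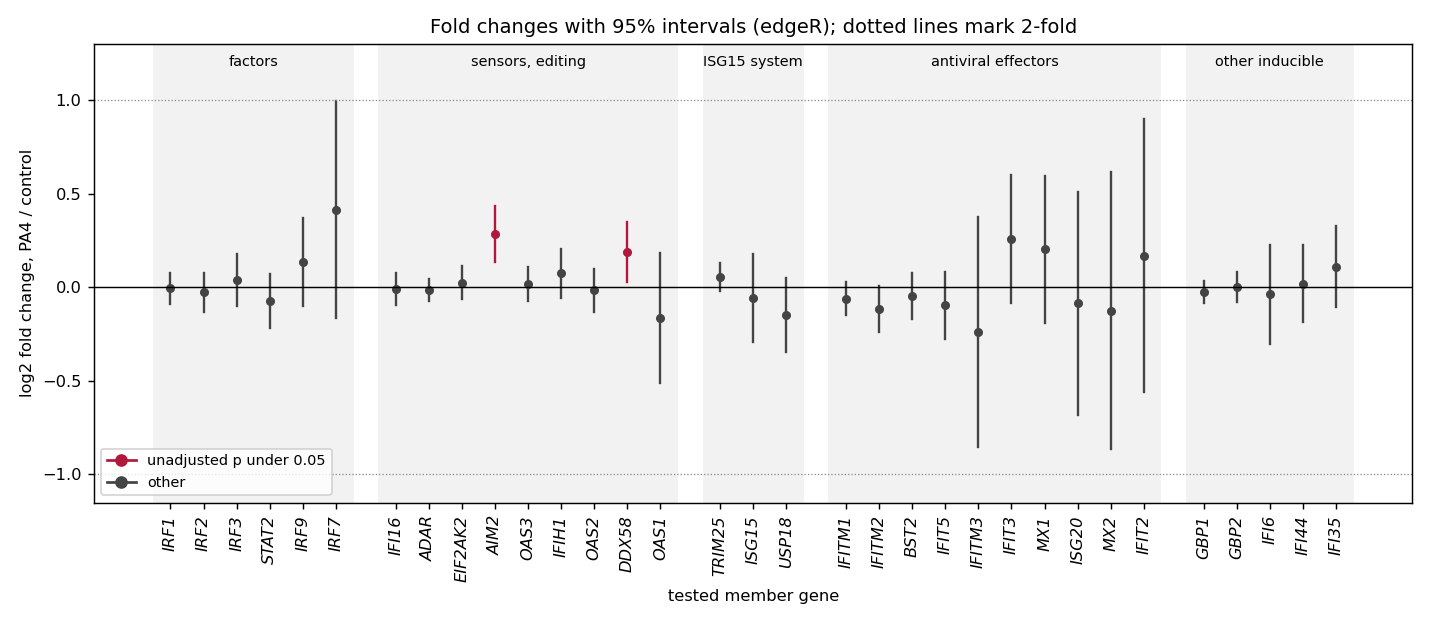
Log2 fold change of PA4 against control for the 33 tested members (points) with 95% intervals (lines), by role. AIM2 and DDX58 (red) are the 2 members at an unadjusted p under 0.05, and every interval lies inside the dotted lines at 2-fold.

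Among nucleic acid sensors, AIM2 had the smallest p-value of all members. AIM2 binds DNA in the cytosol and assembles an inflammasome, and lies on chromosome 1 of GRCh38.p14 at 159055051 to 159147132. It had 22.5, 25.0 and 26.0 CPM in control replicates 1 to 3 and 31.1, 28.7 and 29.8 CPM in PA4 replicates 1 to 3. Each PA4 library was above each control library. The difference was 0.29 ± 0.07 log2 (SE), or 1.22-fold with an interval of 1.099 to 1.352, and the edgeR adjusted p was 0.218 with an unadjusted p of 0.000902, the 50th smallest of all tested genes. The adjusted p was 0.0319 with no low-count filter and 0.01 with offsets for GC content, so the call depended on these settings. Leaving out 1 library gave adjusted p-values from 0.0532 without control replicate 3 to 0.959 without PA4 replicate 1. In those edgeR fits the AIM2 difference ranged from 0.23 to 0.33 log2, and its unadjusted p from 0.000165 to 0.00736. In RefSeq the span of AIM2 shares 101 bases with that of its neighbour IFI16, and whether counting used strand is not given in the sources used here.

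DDX58 encodes RIG-I, a cytosolic sensor of viral RNA ends, on chromosome 9 at 32455302 to 32526196. It stood at 14.3, 14.4 and 14.1 CPM in control libraries and 15.7, 16.5 and 16.5 CPM with PA4, without overlap between the groups. The difference was 0.19 ± 0.08 log2 (SE), or 1.14-fold, with an edgeR adjusted p of 0.856 and an unadjusted p of 0.024. The unadjusted p was 0.0801 in DESeq2. IFIH1, the related sensor MDA5 for long double-stranded RNA, was at 39.3, 39.9 and 45.8 CPM in control libraries and at 44.0, 43.6 and 44.1 CPM with PA4. Its groups overlapped through control replicate 3, and the difference was 0.075 ± 0.062 log2 (SE).

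The most abundant sensors per length were IFI16 and ADAR. IFI16, a nuclear and cytosolic DNA sensor, was at 362, 406 and 408 CPM in control libraries and 387, 384 and 397 CPM with PA4, a difference of -0.0097 ± 0.041 log2 (SE). The PA4 values lay inside the control range. ADAR edits adenosines in double-stranded RNA and thereby hides self RNA from sensors. It was at 631, 626 and 617 CPM in control libraries and 621, 615 and 618 CPM with PA4, and its interval of 0.950 to 1.03-fold was narrower than that of any other member but GBP1. EIF2AK2, the kinase PKR that halts translation when it meets double-stranded RNA, was at 153 ± 7.70 CPM in control libraries and 156 ± 3.58 CPM with PA4 (SD, n = 3 each). The OAS enzymes make a messenger that activates RNase L. OAS2 and OAS3 were at -0.016 ± 0.054 and 0.016 ± 0.043 log2 (SE), and OAS1, with 52 to 72 counts per library, at -0.16 ± 0.16 log2 (SE). The 9 genes of this group had a median of 0.016 log2.

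**Figure D4:**
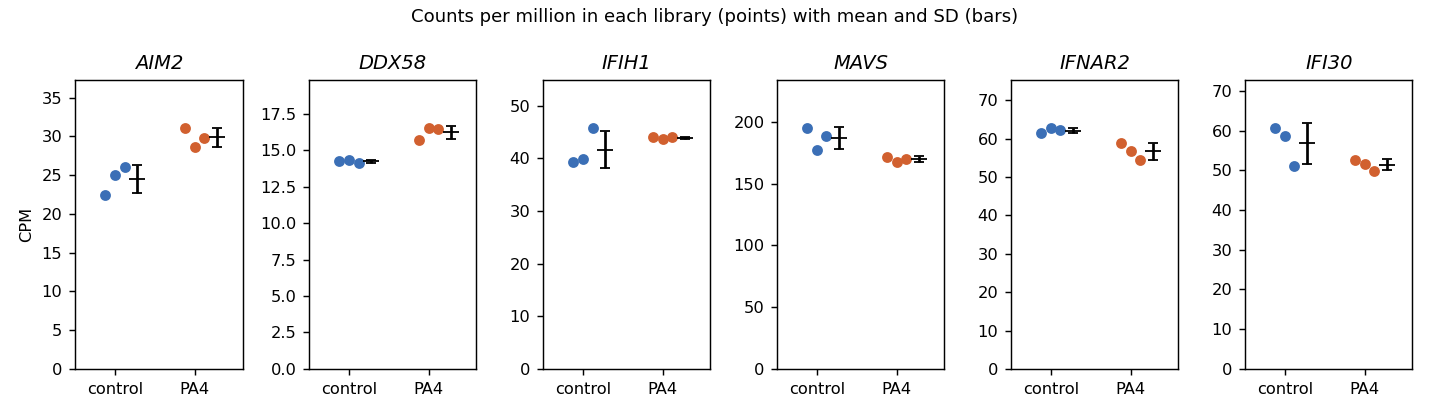
CPM of 3 sensors (AIM2, DDX58, IFIH1) and of 3 other genes of the pathway (MAVS, IFNAR2, IFI30) in each library (points), with mean and SD beside them (bars), on axes that start at 0. AIM2 and DDX58 are higher in each PA4 library than in any control library, MAVS and IFNAR2 are lower in each, and IFIH1 and IFI30 overlap.

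Interferon factors showed no called difference, with a median of 0.017 log2 over 6 genes. IRF1, the factor that interferon gamma induces first, was at 188, 177 and 173 CPM in control libraries and 179, 180 and 177 CPM with PA4. The groups overlapped, and the difference was -0.0054 ± 0.039 log2 (SE), an interval of 0.941 to 1.06-fold. IRF2, which opposes IRF1 at many promoters, was at 53.4, 55.0 and 55.8 CPM in control libraries and 53.9, 54.8 and 52.4 CPM with PA4, or -0.026 ± 0.050 log2 (SE). STAT2 and IRF9, of the type I complex, were at -0.075 ± 0.068 and 0.13 ± 0.11 log2 (SE). IRF3 and IRF7 are the factors that sensors activate to induce interferon genes. IRF3 was at 45.6 ± 4.50 CPM in control libraries and 46.9 ± 1.40 CPM with PA4 (SD, n = 3 each), whereas IRF7 had only 19, 21 and 12 counts in the control libraries and 27, 30 and 17 with PA4. In GENCODE release 29, IRF1 shares 22.0% of its exon bases with the opposite-strand gene C5orf56, which had 448 counts over all libraries. IRF3 shares 19.3% with BCL2L12, which had 1872. That release gives IRF1 7799 and IRF3 3794 exon bases, against 3554 and 2010 in the deposited gene models. The shares in the counted models may therefore differ.

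ISG15 is a ubiquitin-like protein that is joined to other proteins after interferon, USP18 removes it and dampens receptor signalling, and TRIM25 is a ubiquitin ligase that activates RIG-I. TRIM25 was at 254, 252 and 239 CPM in control libraries and 259, 256 and 257 CPM with PA4. It was the third member without overlap between groups, with a difference of 0.053 ± 0.035 log2 (SE) and an edgeR adjusted p of 0.988. ISG15 was at 12.5, 11.4 and 9.56 CPM in control libraries and 9.36, 11.4 and 11.5 CPM with PA4. The ISG15 groups overlapped over most of their range. USP18 went from 12.03 ± 0.893 to 10.8 ± 0.753 CPM (SD, n = 3 each), or -0.15 ± 0.09 log2 (SE), and was not called.

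The antiviral effectors ranged from 0.0771 to 325 RPKM in control. IFITM1 was at 245, 235 and 219 CPM in control libraries and 229, 224 and 217 CPM with PA4, or -0.062 ± 0.042 log2 (SE). Its paralogue IFITM2 was at 102, 96.0 and 85.2 CPM in control libraries and 88.1, 89.9 and 82.7 CPM with PA4, or -0.12 ± 0.06 log2 (SE), with an edgeR unadjusted p of 0.0604. Both genes overlapped between groups. IFITM1 and IFITM2 share 351 exon bases in GENCODE release 29, 32.5% of IFITM1 and 22.7% of IFITM2. That release gives them 1080 and 1543 exon bases, whereas the deposited gene models had 717 and 730. Their RefSeq spans do not overlap, so whether the counted models share bases is not known. The IFITM coding sequences are alike, so that the split of reads between the 2 genes is uncertain. IFITM3, of the same family, had only 12 to 24 counts per library. BST2, or tetherin, which holds budding virions at the cell surface, was at 53.6 ± 3.93 CPM in control libraries and 51.8 ± 1.57 CPM with PA4 (SD, n = 3 each).

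The effectors IFIT1, IFIT2, IFIT3, MX1, MX2 and ISG20, grouped after their values were seen, were the lowest of this role. They were at 0.0771 to 1.10 RPKM in control, whereas IFITM1, IFITM2 and BST2 were at 325, 129 and 52.6 RPKM. MX1, a GTPase that traps viral nucleocapsids, had 42, 36 and 51 counts in control and 59, 57 and 42 with PA4. IFIT3, which stabilises IFIT1 on RNA, had 61, 66 and 53 counts in control and 78, 72 and 78 with PA4, and its library-scaled values overlapped between groups. These differences were 0.20 ± 0.19 and 0.26 ± 0.16 log2 (SE). IFIT5 was higher, at 3.37 ± 0.213 RPKM in control (SD, n = 3), with a difference of -0.096 ± 0.084 log2 (SE). IFIT2 and MX2 had 10 to 25 and 8 to 18 counts per library, and ISG20, a 3′ exonuclease, 15 to 27. Of 10 tested effectors 3 had positive and 7 negative values, with a median of -0.074 log2 and 0 called. IFIT1, IFIT2 and IFIT3 lie within the span of LIPA on chromosome 10, and IFIT2 shares 65 exon bases with it.

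Of the other inducible genes, GBP1 was at 999, 1017 and 1045 CPM in control libraries and 1001, 991 and 1016 CPM with PA4. Its interval, 0.944 to 1.02-fold, was the narrowest of the tested members. GBP2 was at 149.8, 146 and 152 CPM in control libraries and 146, 152 and 151 CPM with PA4, a difference of 0.00075 ± 0.038 log2 (SE). In GENCODE release 29 GBP2 shares 9.89% of its 6276 exon bases with GBP7, which had 1 count over all libraries. The deposited model of GBP2 had 4132 bases, so the share in the counted model may differ. IFI6, a mitochondrial and endoplasmic reticulum protein that opposes cell death, went from 10.7 ± 1.65 to 10.3 ± 1.58 CPM (SD, n = 3 each). IFI44 and IFI35 were at 0.019 ± 0.098 and 0.11 ± 0.10 log2 (SE). The median of the 5 tested genes was 0.00075 log2, and 0 were called.

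Members with and without the response element letters gave similar summaries. The 15 tested genes with the letters had a median of -0.025 log2 and ranged from -0.24 to 0.29, and the 9 without them had a median of -0.0054 log2 and ranged from -0.16 to 0.19. AIM2 belonged to the first set, and DDX58 and TRIM25 to the second. No test of the difference between the sets was made.

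**Figure D5:**
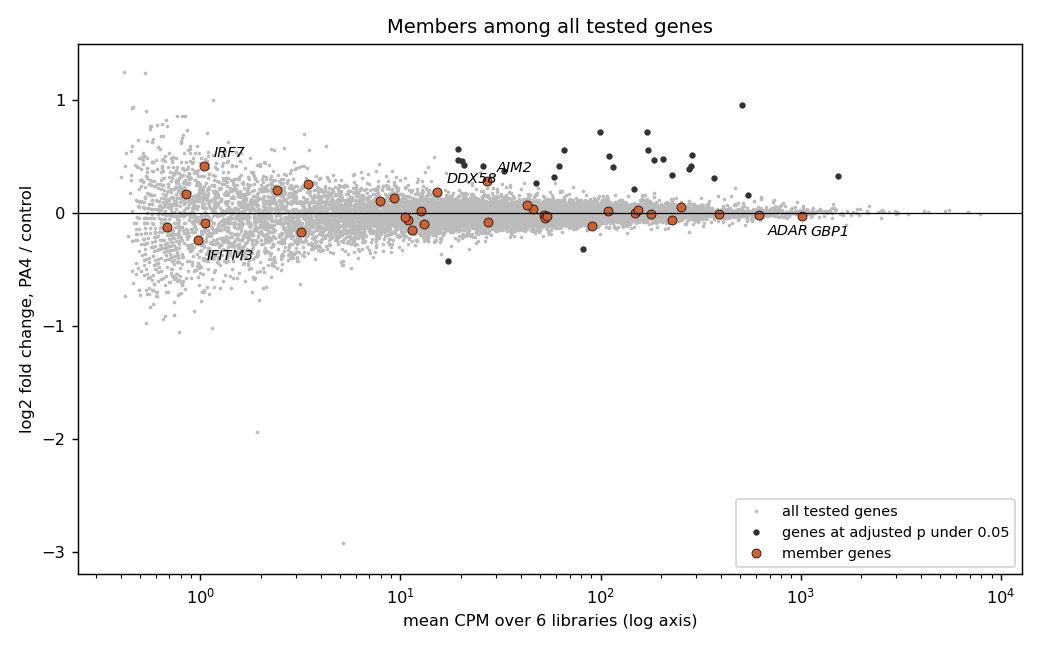
Log2 fold change of PA4 against control plotted against mean CPM (log axis) for all 12107 tested genes (grey), the 28 genes at an adjusted p under 0.05 (black) and the 33 tested members (orange). The members lie within the grey cloud, with AIM2 at 0.29 and DDX58 at 0.19 near its upper edge at their abundance.

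A list of 92 other genes of the pathway was examined beside the members, of which 77 were tested and 2, CGAS and STING1, were found under the older names MB21D1 and TMEM173. Of the 77, 0 were called in either direction by edgeR, DESeq2 or limma-voom, and the median was -0.015 log2. DESeq2 gave no adjusted p for some low-count genes among them. At an unadjusted p under 0.05, edgeR gave 0 higher and 4 lower, 5.19% in all. Over all tested genes that share was 5.29% in both directions together and 2.6% lower. Of 9 interferon genes, 7 had 0 counts in every library, among them IFNB1, while IFNL1 had at most 2 counts and IFNG 25 to 54 counts per library, named after their values were seen.

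MAVS, IFNAR2 and IFI30 were among the 4 genes at an unadjusted p under 0.05. MAVS, the mitochondrial adaptor through which RIG-I and MDA5 signal, was at 195, 177 and 188 CPM in control libraries and 172, 167 and 170.3 CPM with PA4. The groups did not overlap, and the difference was -0.14 ± 0.04 log2 (SE), or 0.909-fold, with an edgeR adjusted p of 0.451, or 0.0207 with GC content offsets. IFNAR2, a chain of the type I receptor, was at 61.4, 62.8 and 62.2 CPM in control libraries and 58.8, 56.9 and 54.5 CPM with PA4, or -0.13 ± 0.05 log2 (SE), with an edgeR adjusted p of 0.827. IFI30, a lysosomal thiol reductase of antigen processing, was at 60.7, 58.6 and 51.0 CPM in control libraries and 52.7, 51.6 and 49.9 CPM with PA4. Its groups overlapped through control replicate 3, and the difference was -0.14 ± 0.06 log2 (SE), with an edgeR adjusted p of 0.920. The other 5 receptor genes of the list were IFNAR1, IFNGR1, IFNGR2, IL10RB and IFNLR1, of which the last pair was named after their values were seen. IFNAR1, IFNGR1 and IFNGR2 were at -0.013 ± 0.053, 0.055 ± 0.074 and -0.049 ± 0.069 log2 (SE). IL10RB was at -0.086 ± 0.070 log2 (SE), and IFNLR1, with 7 to 19 counts per library, at -0.39 ± 0.37 log2 (SE). Of the 6 receptor genes 1 had a positive and 5 a negative value. None of the genes of this paragraph was called in the main edgeR fit. MAVS was called with GC content offsets, alone or with a replicate block.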

How the data were processed

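The deposited values were raw read counts, 1 row per gene and 1 column per library, beside the length of each gene model, per the file headers. Per the submitters' processing notes, the authors used Trimmomatic 0.39, fastp 0.23.2, STAR 2.7.9a and featureCounts of Subread 1.6.4 on hg38. Annotation and strand setting: not given in the sources used here. The test was run with edgeR 4.0.16 under R 4.3.3 (filterByExpr, TMM factors, glmQLFit and glmQLFTest, two-sided, no covariate, Benjamini-Hochberg over 12107 genes, threshold 0.05). Of these steps, only the edgeR fit and test, with the low-count filter off, were tried on simulated counts. CPM are counts over the TMM-scaled library size and RPKM divides CPM by gene model length in kilobases. Members and lists were chosen with earlier results of these data known. Members called, members at an unadjusted p under 0.05 and the 2 most abundant per length in each role are given in full. Pathway genes named are those at an unadjusted p under 0.05 and 4 receptor genes. The values of 1 such gene are not reported here. Library pairs differed beyond sampling noise (chi-square per degree of freedom 1.48 to 6.81). Alternatives used DESeq2 1.42.0, limma 3.58.1, other scalings and filters, GC content offsets from GENCODE release 29 transcripts (94.5% of tested genes matched), a replicate block and leaving out each library.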

Additional observations from a re-analysis of the deposited data

How the results depend on the processing

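Results with offsets, the block and other settings are edgeR's unless another tool is named. Members called were 0 higher and 0 lower in 10 of 14 alternatives, and 1 higher and 0 lower in 4. That member was AIM2, at 0.29 log2 in each, with an adjusted p of 0.0319 with no low-count filter, 0.0486 with the replicate block, 0.01 with GC content offsets and 0.0139 with both together. Its adjusted p ranged from 0.01 to 0.959 over the alternatives, and the cause was not tested. At an unadjusted p under 0.05, members higher were 2 in the main fit and 1 in DESeq2. They were 3 with the replicate block and GC content offsets together, and 1 to 4 without 1 library. Members lower at that level were 1 with no filter, 1 with the replicate block, 2 with GC content offsets, 2 with both and 0 to 3 without 1 library. Of all genes with a p-value, the share at that level in both directions together was 5.29% in the main fit. It was 4.95% with no filter, 7.1% with the block, 10.4% with GC content offsets and 11.2% with both. In DESeq2 it was 1.82%, and without 1 library it was 3.6% to 9.96%. Other pathway genes called lower were 2, MAVS among them, with GC content offsets and with both, and 0 to 1 without 1 library. Of all genes, against 26 higher and 2 lower, no filter called 53 and 9, the block 50 and 9, GC content offsets 81 and 18, both 96 and 27, DESeq2 36 and 4, and leaving out 1 library 16 to 50 and 1 to 24. The median of the members lay between -0.016 and 0.0027 log2 over the alternatives. Control and PA4 libraries of the same number deviated from their group means with correlations of 0.065, -0.014 and 0.21, and not every library correlated best with its own number, so the numbers were not taken as pairs.

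Direction was kept by 19 of 33 tested members over the 14 alternatives, AIM2 and DDX58 among them. The other 14 changed sign in 31 of 462 values, 28 of them without 1 library, and none of these genes was called. GBP2 changed to -0.0053 with library size alone, -0.0021 with GC content offsets and -0.0020 with both. Ranges without 1 library for these members and the receptor genes IFNAR1 and IFNGR1, in log2, were BST2 -0.10 to 0.0063, EIF2AK2 -0.012 to 0.061, GBP2 -0.014 to 0.020, IFI16 -0.064 to 0.019, IFI44 -0.037 to 0.11, IFI6 -0.15 to 0.072. They were IFIT2 -0.12 to 0.58, IFNAR1 -0.071 to 0.040, IFNGR1 -0.021 to 0.11, IRF1 -0.029 to 0.030, IRF3 -0.017 to 0.12, ISG15 -0.16 to 0.032. The remaining ranges were ISG20 -0.27 to 0.16, MX2 -0.39 to 0.085, OAS2 -0.063 to 0.010 and OAS3 -0.014 to 0.040. The 7 members whose intervals reached beyond 1.5-fold had 78 or fewer counts per library, as did OAS1, whose interval did not.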
